A study of Mus musculus with 6 samples.

Results

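The expression of 10 genes that ERK signalling is known to switch on was followed: the Sprouty genes Spry1, Spry2 and Spry4, the Sprouty-related genes Spred1, Spred2 and Spred3, the PEA3 transcription factor genes Etv1, Etv4 and Etv5, and Phlda1. They were chosen by name, as a family of pathway readouts, but with earlier results of these data known. All 10 were found among the 26532 genes of the deposited table. All 10 also passed the low-count filter, which left 13764 genes for the test. ERK is the last kinase of a cascade that runs from growth factor receptors through RAS, RAF and MEK. When it is active it induces genes that act back on the cascade, among them the Sprouty and Spred proteins, and genes that carry the signal on into transcription, among them the PEA3 factors, which belong to the ETS family. In fibroblasts and their mesenchymal relatives these genes are known as readouts of fibroblast growth factor (FGF) receptors.

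RNA was sequenced from mouse embryonic fibroblasts (MEFs), embryo-derived cells labelled here also as mesenchymal stem cells, all of them under osteogenic differentiation. In the ORAI2 group (3 libraries, genotype label ORAI2 Overexpression) the label AdORAI2, the usual notation for a recombinant adenovirus, names the supply of ORAI2, a pore subunit of store-operated calcium channels. In the GFP group (3 libraries, genotype label WT) the label AdGFP names the same kind of vector with green fluorescent protein. The title of the series names BMP9-induced differentiation and the ERK1/2 and AKT pathways, but the sample labels used here give no BMP9 addition, no time, no promoter of the transgene and no separate cultures for the replicates. The p-values therefore measure the spread among these 6 libraries, and that spread may be technical.

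Total counts lay between 18526884 and 18844436 per library. Orai2 itself was at 3652, 2828 and 2439 CPM (counts relative to the library's total, with TMM factors) in the ORAI2 libraries, against 53.3, 48.9 and 48.6 CPM in the GFP libraries. Of 11 fibroblast and mesenchymal markers 10 could be tested, and Thy1 had too few counts. Twist2 was higher in the ORAI2 libraries and the other 9 were lower, with a summed level of 6609 to 7142 CPM in the ORAI2 libraries against 8235 to 8825 CPM in the GFP libraries. The 5 macrophage markers in the table summed to 5.28 to 7.17 CPM in the ORAI2 libraries against 13.2 to 15.6 CPM in the GFP libraries. The 5 endothelial markers summed to 16.3 to 17.5 CPM in the ORAI2 libraries against 6.42 to 8.88 CPM in the GFP libraries, and the 5 epithelial markers to 4.21 to 5.12 CPM in the ORAI2 libraries against 2.74 to 3.74 CPM in the GFP libraries. Each of these sums came mostly from 1 or 2 genes that could be tested. Mpeg1 fell, at 3.62 CPM in ORAI2 cells and 11.9 CPM in GFP cells, while Lyz2 had 7, 8 and 3 counts in the ORAI2 libraries against 0, 7 and 1 in the GFP libraries. Vwf and Kdr rose, and the other 3 endothelial markers had at most 7 counts in a library. Grhl2 rose, at 2.36 CPM in ORAI2 cells and 0.499 CPM in GFP cells, while Krt18 was at 2.11 CPM in ORAI2 cells and 2.48 CPM in GFP cells and did not pass, and Cdh1 and Krt8 had at most 5 counts in a library. Neural and glial markers summed to 12.9 to 13.9 CPM in the ORAI2 libraries and 15.4 to 17.3 CPM in the GFP libraries, and skeletal muscle markers to at most 0.162 CPM in any library. The epithelial marker Epcam and the muscle marker Ckm had no count in any library. The part of these shifts in the results below was not tested, and in bulk RNA fewer cells of a type and less RNA per cell cannot be told apart.

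Of the 10 genes 8 were higher in ORAI2 cells and 0 were lower at an adjusted p under 0.05 (edgeR quasi-likelihood test, Benjamini-Hochberg adjustment over all tested genes). Etv4, Etv5, Spry4 and Phlda1 rose most, by 1.86-fold to 1.96-fold. Etv1 and Spry2 rose 1.58-fold and 1.54-fold, Spred3 and Spred2 by less, and Spred1 and Spry1 did not pass. Over all tested genes 42.9% were called, 20.8% as higher and 22.1% as lower, so that 8 of 10 stood against 20.8% for rises. A rise of at least 1.5-fold was called in 6 of the 10, against 2.54% of all tested genes. The median log2 fold change was 0.64 over the 10 genes and 0.00 over all tested genes. Libraries of the 2 groups lay fully apart for 9 of the 10 genes, against 52.9% of all tested genes. Because the 10 genes were chosen with earlier results of these data known, these shares describe them and are no test of the family. DESeq2 and limma-voom also gave 0 lower at an adjusted p under 0.05. At an unadjusted p under 0.05 edgeR and DESeq2 gave 0 lower each, and limma-voom gave 1, Spry1 (unadjusted p = 0.0406, limma-voom adjusted p = 0.0842).

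**Figure D1:**
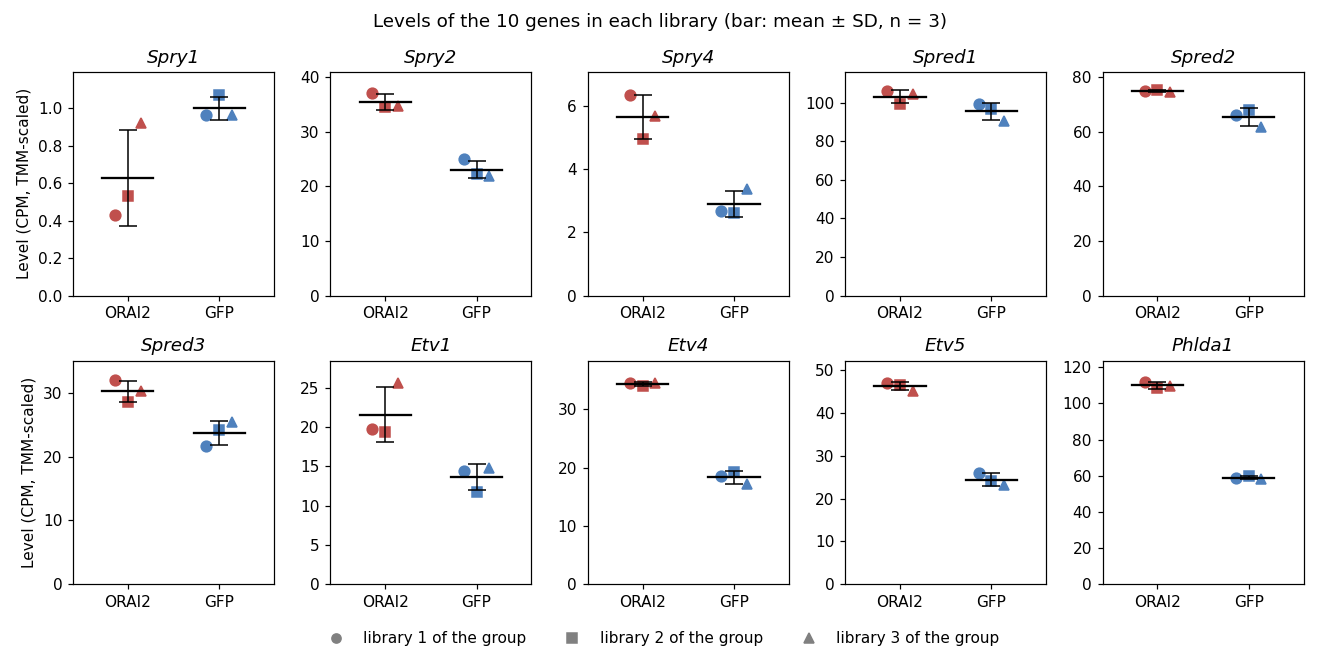
Level of each of the 10 genes in CPM after TMM scaling (vertical axes, each starting at 0) in the 3 ORAI2 and 3 GFP libraries, with lines and bars for the mean and SD. The groups are apart for every gene but Spred1, and Spry1 is the one gene that lies lower in the ORAI2 libraries.

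The PEA3 factors Etv1 (ER81), Etv4 (PEA3) and Etv5 (ERM) bind ETS sites and pass ERK and FGF signals on to transcription. Etv5 was at 46.9, 46.4 and 45.1 CPM in the ORAI2 libraries, against 26.1, 24.1 and 23.1 CPM in the GFP libraries. Both groups were tight and far apart. The difference was 1.89-fold, from means of 46.1 ± 0.943 CPM in ORAI2 cells and 24.4 ± 1.49 CPM in GFP cells (SD, n = 3 each; log2 fold change 0.92, SE 0.06, edgeR adjusted p = 1.09e-07).

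Etv4 was at 34.4, 33.9 and 34.5 CPM in the ORAI2 libraries, against 18.6, 19.2 and 17.1 CPM in the GFP libraries. Its rise was 1.87-fold (log2 fold change 0.90, 95% interval 0.77 to 1.04, edgeR adjusted p = 2.73e-07), with no overlap between the groups. Etv1 was the more variable of the 3 factors, at 19.8, 19.4 and 25.7 CPM in the ORAI2 libraries and 14.5, 11.8 and 14.8 CPM in the GFP libraries. ORAI2 replicate 3 was the highest of the 6 and GFP replicate 2 the lowest. Etv1 rose 1.58-fold (log2 fold change 0.66, 95% interval 0.40 to 0.91, edgeR adjusted p = 6.64e-04), and by 0.52 on the log2 scale without ORAI2 replicate 3 (edgeR adjusted p = 0.00186).

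As a share of the summed counts of the 3 factors, Etv5 took 46.4%, 46.6% and 42.8% in the ORAI2 libraries, against 44.1%, 43.6% and 42.0% in the GFP libraries. Etv4 took 34.1%, 34.0% and 32.8% in the ORAI2 libraries, against 31.5%, 34.9% and 31.1% in the GFP libraries. Etv1 took 19.6%, 19.4% and 24.4% in the ORAI2 libraries, against 24.5%, 21.4% and 26.9% in the GFP libraries. The groups overlapped for Etv4, Etv5 and Etv1 alike. The log2 ratio of Etv4 to Etv5 averaged -0.43 in ORAI2 cells and -0.41 in GFP cells, a difference of -0.01 that was within the spread (exact permutation test, two-sided, p = 0.8, adjusted p = 0.8 over 7 pairs). For Etv1 to Etv5 the difference was -0.27 (exact permutation p = 0.3, adjusted p = 0.35), and -0.41 without ORAI2 replicate 3. With 3 against 3 libraries that test cannot give a p under 0.1, so it does not show that the proportions were the same.

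The Sprouty proteins are membrane-associated inhibitors that dampen signalling from receptor tyrosine kinases to ERK. Spry2, which also binds the ubiquitin ligase CBL, was at 37.1, 34.4 and 34.7 CPM in the ORAI2 libraries, against 24.9, 22.3 and 22.0 CPM in the GFP libraries. All 3 ORAI2 libraries lay well above the GFP libraries. It rose 1.54-fold (log2 fold change 0.62, SE 0.06, edgeR adjusted p = 8.86e-06). Spry2 supplied most of the Sprouty counts, 84.1% to 86.2% of them in the ORAI2 libraries and 83.5% to 87.2% in the GFP libraries.

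Spry4 was scarce but showed the largest fold change of the 10 genes. Its counts were 118, 93 and 105 in the ORAI2 libraries, against 50, 49 and 63 in the GFP libraries, or 5.66 ± 0.695 CPM in ORAI2 cells and 2.89 ± 0.416 CPM in GFP cells (SD, n = 3 each). The rise was 1.96-fold (log2 fold change 0.97, 95% interval 0.63 to 1.31, edgeR adjusted p = 2.93e-04). The interval is wide enough to hold the fold changes of Etv4, Etv5 and Phlda1.

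Spry1 pointed the other way. Its counts were 8, 10 and 17 in the ORAI2 libraries, against 18, 20 and 18 in the GFP libraries. The GFP libraries were close together and the ORAI2 libraries spread, with replicate 3 just under the GFP range. The log2 fold change of -0.67 had a 95% interval of -1.37 to 0.03 and did not pass (edgeR adjusted p = 0.116). Without ORAI2 replicate 3 it was -1.03 and passed (edgeR adjusted p = 0.0386). At 35 counts over the ORAI2 libraries and 56 over the GFP libraries, depth limits what can be said of Spry1.

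The log2 ratio of Spry4 to Spry1 was 3.58, 2.98 and 2.49 in the ORAI2 libraries, against 1.38, 1.21 and 1.70 in the GFP libraries. That of Spry2 to Spry1 was 6.11, 5.75 and 5.08 in the ORAI2 libraries, against 4.54, 4.25 and 4.37 in the GFP libraries. In both pairs every ORAI2 library lay above every GFP library, with mean differences of 1.59 and 1.26. The exact permutation p of each was 0.1, the smallest the design allows (adjusted p = 0.175). Both pairs share the low Spry1 counts. Every ORAI2 library had fewer Spry1 counts and more Spry2 and Spry4 counts than every GFP library. The separation of both ratios and their exact permutation p followed from that and add no evidence. Spry4 to Spry2 differed by 0.33, with overlapping groups (exact permutation p = 0.2, adjusted p = 0.28).

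**Figure D2:**
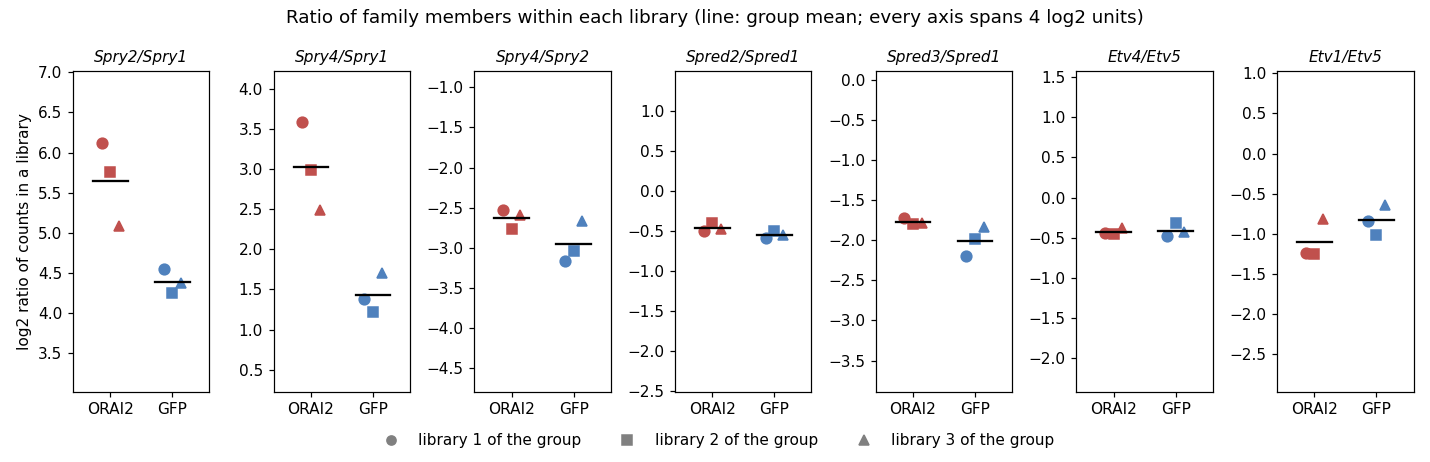
Log2 ratio of the counts of 2 family members in the same library (vertical axes, each spanning 4 log2 units), for the 3 ORAI2 and 3 GFP libraries, with lines for the group means. The ratios against Spry1 differ by 1.26 and 1.59 between the groups, and the other 5 by at most 0.33 in size.

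Promoter sequence was looked at for what the genes share that expression does not show. RefSeq windows of GRCm38.p6 (250 bases before to 50 after a start site) were matched by symbol for 7 of the 10 genes, with 9 windows, because Etv1 and Etv5 have 2 each. Spry4, Etv4 and Phlda1 were not matched. The octamers TGAATGAA and TCAATGAA, bound by the repressor capicua that ERK inactivates, the AP-1 site TGACTCA (the other common spelling is its reverse complement, so both count as 1 motif) and the ETS site CCGGAAGT were searched on both strands. TGAATGAA was found in the Spred3 window and in 1.3% of 32851 windows, and TCAATGAA in the Spry2 window and in 0.749% of windows. The AP-1 letters (5.2% of windows) and the ETS letters (3.89% of windows) were found in none of the 9. A match is a description of letters in a window, not a binding site.

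The 250 bases before the start site are printed for the 2 genes that hold a capicua octamer, in capitals, and for comparison for Etv5, which rose most clearly among the factors, and for Spry1, which did not rise. All are 5′ to 3′ on the strand of the gene, from RefSeq, GRCm38.p6. They lie at chr14:105896820-105897069 (minus strand) for Spry2, chr7:29168648-29168897 (minus strand) for Spred3, chr16:22439571-22439820 (minus strand, the first of 2 start sites) for Etv5 and chr3:37639697-37639946 (plus strand) for Spry1. In Spry2 the capitals read the octamer on the opposite strand.
Spry2: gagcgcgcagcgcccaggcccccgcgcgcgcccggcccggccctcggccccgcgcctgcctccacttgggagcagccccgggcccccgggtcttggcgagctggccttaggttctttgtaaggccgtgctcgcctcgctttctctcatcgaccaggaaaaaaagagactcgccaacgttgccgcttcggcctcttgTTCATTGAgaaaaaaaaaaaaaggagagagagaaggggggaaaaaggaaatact
Spred3: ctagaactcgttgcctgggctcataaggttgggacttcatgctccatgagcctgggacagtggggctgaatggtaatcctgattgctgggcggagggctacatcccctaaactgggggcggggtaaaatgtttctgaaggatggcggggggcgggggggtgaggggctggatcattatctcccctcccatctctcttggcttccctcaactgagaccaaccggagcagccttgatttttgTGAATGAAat
Etv5: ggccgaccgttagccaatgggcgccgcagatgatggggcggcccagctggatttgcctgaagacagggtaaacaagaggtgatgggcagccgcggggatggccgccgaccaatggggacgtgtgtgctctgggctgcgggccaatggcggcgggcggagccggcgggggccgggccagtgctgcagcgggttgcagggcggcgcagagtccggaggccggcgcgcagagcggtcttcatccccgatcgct
Spry1: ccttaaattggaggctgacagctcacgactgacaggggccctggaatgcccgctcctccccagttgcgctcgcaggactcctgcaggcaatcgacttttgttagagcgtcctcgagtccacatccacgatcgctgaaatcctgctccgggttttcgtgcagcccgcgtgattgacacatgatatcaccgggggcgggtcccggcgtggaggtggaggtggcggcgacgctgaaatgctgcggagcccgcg

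The 4 stretches differ in base composition. The full windows were 62.7% G and C in Spry2, 55.0% in Spred3, 74.0% in Etv5 and 64.3% in Spry1, against a median of 52.7% over all windows. The octamer of Spred3 began 10 bases before the start site and that of Spry2 54 bases before it.

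The Spred proteins carry the Sprouty domain and bring neurofibromin, a brake on RAS, to the membrane. They changed least. Spred3, whose KIT-binding domain is known to be non-functional, was at 31.9, 28.5 and 30.2 CPM in the ORAI2 libraries, against 21.6, 24.2 and 25.3 CPM in the GFP libraries. It rose 1.27-fold (log2 fold change 0.35, 95% interval 0.19 to 0.50, edgeR adjusted p = 0.00175). The groups did not overlap.

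Spred2 was at 74.9, 75.2 and 74.8 CPM in the ORAI2 libraries, against 66.2, 68.1 and 61.7 CPM in the GFP libraries, a 1.15-fold rise (log2 fold change 0.20, SE 0.04, edgeR adjusted p = 0.00321). Spred1, the gene lost in human Legius syndrome, was at 106, 99.1 and 104 CPM in the ORAI2 libraries and 99.5, 96.5 and 90.7 CPM in the GFP libraries. GFP replicate 1 lay above ORAI2 replicate 2. Its log2 fold change of 0.11 (95% interval 0.01 to 0.20) had an unadjusted p of 0.0285 and did not pass (edgeR adjusted p = 0.0630). It passed without ORAI2 replicate 2 (edgeR adjusted p = 0.0319) and without GFP replicate 1 (edgeR adjusted p = 0.0412), and in a fit with the replicate number as a block (edgeR adjusted p = 0.0444).

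Within the Spred family the log2 ratio of Spred3 to Spred1 was 0.24 higher in ORAI2 cells and that of Spred2 to Spred1 0.09 higher, both without overlap (exact permutation p = 0.1 each, adjusted p = 0.175). Spred1 took 48.9% to 49.8% of the Spred counts in the ORAI2 libraries, against 51.0% to 53.1% in the GFP libraries.

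Phlda1, a pleckstrin homology-like protein whose transcript is used as a readout of MEK and ERK activity, gave the most precise difference of the 10. It was at 112, 108 and 109.6 CPM in the ORAI2 libraries, against 58.7, 60.0 and 58.3 CPM in the GFP libraries. The rise was 1.86-fold (log2 fold change 0.90, SE 0.04, edgeR adjusted p = 6.96e-09). Among its relatives, Phlda3 was 46.8 ± 4.07 CPM in ORAI2 cells and 55.7 ± 4.84 CPM in GFP cells (log2 fold change -0.25, edgeR adjusted p = 0.0132), with overlapping groups, a call lost without ORAI2 replicate 1, ORAI2 replicate 3 or GFP replicate 2 (edgeR adjusted p = 0.0730, 0.0503 and 0.0633). Phlda2 was under the filter, with 2, 1 and 0 counts in the ORAI2 libraries and 1, 0 and 2 in the GFP libraries.

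**Figure D3:**
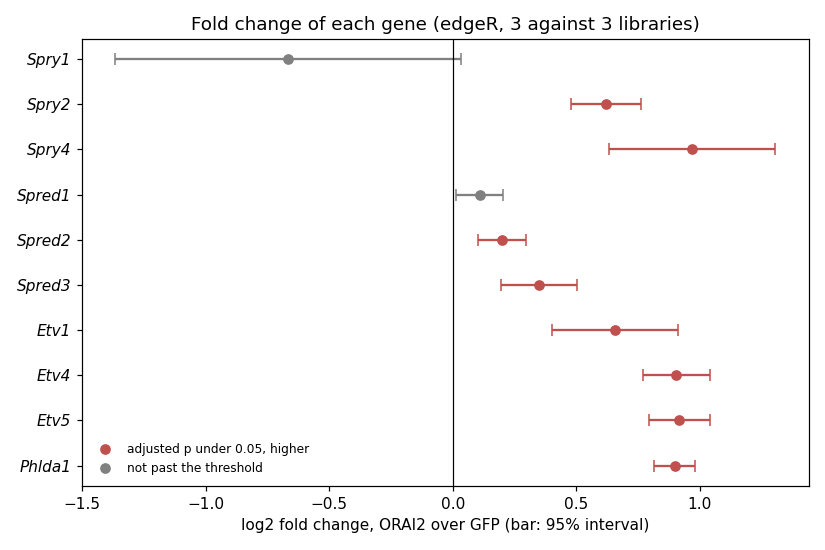
Log2 fold change of ORAI2 over GFP for each gene (horizontal axis) with its 95% interval from the edgeR fit, coloured where the adjusted p was under 0.05. Etv4, Etv5, Phlda1 and Spry4 lie between 0.90 and 0.97, the Spred genes between 0.11 and 0.35, and the interval of Spry1 crosses 0.

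Levels of different genes were set side by side per kilobase of the longest coding transcript of GENCODE M21. Phlda1 was the most abundant, at 56.4 CPM per kb in ORAI2 cells and 30.3 in GFP cells. Spred1 had rank 2 in both groups, at 17.1 CPM per kb in ORAI2 cells and 15.9 in GFP cells. Spry2 (17.0 CPM per kb) stood just above Spred2 (16.9) in ORAI2 cells, and below it in GFP cells, with 11.1 for Spry2 and 14.7 for Spred2. Spry4 and Spry1 were last, at 1.19 and 0.226 CPM per kb in ORAI2 cells and 0.608 and 0.360 in GFP cells. The order depends on the transcripts used. With median lengths Spred1 was at 27.6 CPM per kb in ORAI2 cells and 25.6 in GFP cells, and Spred2 at 26.3 in ORAI2 cells and 22.9 in GFP cells, so that Spred2 stood above Spry2 in both groups. Etv1 moved as well: rank 8 of 10 with the longest of its 10 coding transcripts, but rank 6 in ORAI2 cells and rank 5 in GFP cells when median lengths are used.

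Reads of close relatives can be shared between genes, so sequence identity was computed. Between the longest reading frames identity was 56.2% to 65.8% for the Spred genes, 61.0% to 62.1% for the Sprouty genes and 65.9% to 70.2% for the PEA3 genes. The longest stretch shared without a mismatch by any such pair was 23 bases, between Etv5 and each of the other two. In 3 of the genes exon bases are shared with a gene on the opposite strand, and the sources used here do not say whether counting used strand. These were Spry1 with Gm42922 over 24.4% of its exon bases, Phlda1 with the long non-coding RNA gene Gm28592 over 33.0%, and Spred3 with Ggn over 3.25%. Ggn was at 1.04 CPM in ORAI2 cells and 1.19 CPM in GFP cells (log2 fold change -0.20, edgeR adjusted p = 0.547). The first 2 were not among the tested genes, so reads of theirs in Spry1 or Phlda1 cannot be told apart.

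A further 8 lists of genes of the pathway were read the same way, by counts and medians without a set test. Each count below stands beside 20.8% of all tested genes called higher and 22.1% called lower. No list was tested against those shares. Of 10 other feedback inhibitors 5 rose and 1 fell, with a median log2 fold change of 0.23. The rises included the ERK phosphatases Dusp4 (log2 fold change 1.45), Dusp6 (0.70) and Dusp5 (0.87). The gene that fell was Il17rd, which encodes the FGF receptor antagonist Sef, at 13.2 ± 0.864 CPM in ORAI2 cells and 20.6 ± 2.35 CPM in GFP cells (SD, n = 3 each; log2 fold change -0.64, edgeR adjusted p = 1.44e-04). Il17rd was named after its value was seen.

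Of 14 other ERK-induced genes tested 9 rose, 4 fell and 1 did not pass, with a median log2 fold change of 0.47. Fosl1 (log2 fold change 1.30), Myc (0.64) and Maff (0.58) had the smallest p-values. Plaur, the urokinase receptor gene, and Ier3 rose by 0.97 and 0.76. The 4 that fell were Egr1, Fos, Junb and Epha4, with log2 fold changes of -0.82, -0.79, -0.26 and -0.49. The Epha4 call (edgeR adjusted p = 0.0486) was lost in each fit that left out 1 library except that without GFP replicate 1. The edgeR adjusted p-values of those losses were 0.0628 to 0.157. With all libraries the Epha4 call was also lost in DESeq2 (adjusted p = 0.16) and limma-voom (adjusted p = 0.051). Library-size scaling and a fit without the low-count filter lost it too. Plaur, Ier3 and these 4 were named after their values were seen.

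Of 16 genes from RAS to the RSK kinases 2 rose and 5 fell, with a median log2 fold change of -0.03. Map2k1, which encodes the kinase MEK1, was at 146 ± 3.24 CPM in ORAI2 cells and 201 ± 6.66 CPM in GFP cells (SD, n = 3 each; log2 fold change -0.46, edgeR adjusted p = 1.07e-06). Sos2, an exchange factor that activates RAS, and Nras rose, with log2 fold changes of 0.43 and 0.28. Mapk3, the gene of ERK1, fell by 0.29. Mapk3 was named after its value was seen. The falls of Map2k2 and Rps6ka3 were both lost without ORAI2 replicate 3 (edgeR adjusted p = 0.126 and 0.0759), which left 3 falls, and both without GFP replicate 1 (edgeR adjusted p = 0.0921 and 0.133). Map2k2 was also lost without GFP replicate 2 and Rps6ka3 without ORAI2 replicate 1 (edgeR adjusted p = 0.0671 and 0.147).

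Among 13 genes whose proteins bind or work with Sprouty and Spred 4 rose and 2 fell, with a median log2 fold change of 0.08. Rasa1, a RAS GTPase-activating protein, rose 1.48-fold, to 147 ± 9.03 CPM in ORAI2 cells against 98.9 ± 2.75 CPM in GFP cells (SD, n = 3 each; edgeR adjusted p = 1.17e-06). Cav1 (caveolin-1) rose 1.57-fold and Tesk1, a kinase bound by Sprouty, 1.22-fold. Nf1, the partner of the Spred proteins, rose 1.10-fold (edgeR adjusted p = 0.0100), a call lost without GFP replicate 2 (edgeR adjusted p = 0.0580). The 2 that fell, Frs2 and Shc1, had log2 fold changes of -0.09 and -0.11. The Frs2 call (edgeR adjusted p = 0.0489) was lost whichever library was left out. That of Shc1 (edgeR adjusted p = 0.0439) was lost without ORAI2 replicates 1 or 2 or GFP replicates 1 or 3. The edgeR adjusted p-values of these losses were 0.0826 to 0.169 over both genes. With all libraries DESeq2 lost both calls (adjusted p = 0.18 for Frs2 and 0.0919 for Shc1), and limma-voom lost that of Frs2 (adjusted p = 0.0528). Nf1, Frs2 and Shc1 were named after their values were seen.

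Of 5 regulators of the PEA3 factors 2 fell and 3 did not pass, with a median log2 fold change of -0.05. Cic, the capicua gene, was at 90.6 ± 4.85 CPM in ORAI2 cells and 109 ± 2.41 CPM in GFP cells (SD, n = 3 each; log2 fold change -0.27, edgeR adjusted p = 3.64e-04). Its cofactor gene Atxn1 fell by 0.30 (edgeR adjusted p = 0.00597). Atxn1l, Cop1 and Det1, the last 2 belonging to a ubiquitin ligase that degrades PEA3 factors, had log2 fold changes of -0.01, 0.01 and -0.05 and did not pass.

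Other ETS factors moved both ways, with 3 of 13 higher, 5 lower and a median log2 fold change of -0.02. Ets1 rose 1.30-fold and Gabpa 1.17-fold, and Ets2 fell by 0.29 on the log2 scale (edgeR adjusted p = 1.47e-05, 1.53e-04 and 1.56e-04). A test of the PEA3 genes against other ETS genes was not made. Of 8 FGF ligands and receptors tested 4 rose and 4 did not pass, with a median log2 fold change of 0.16. Klb, a co-receptor gene, rose from few counts, at 1.43 CPM in ORAI2 cells and 0.499 CPM in GFP cells (edgeR adjusted p = 0.00124). Fgfr3 rose 1.54-fold and the decoy receptor gene Fgfrl1 1.24-fold. The ligand genes Fgf2 and Fgf7 had log2 fold changes of 0.00 and 0.05, and Fgfr1 0.04, and did not pass (edgeR adjusted p = 0.977, 0.496 and 0.441). These 3 were named after their values were seen. The fourth rise was that of Fgfr2 (log2 fold change 0.18, edgeR adjusted p = 0.0422). It was lost without ORAI2 replicates 1 or 3 or GFP replicates 2 or 3, with edgeR adjusted p-values of 0.0527 to 0.143. With all libraries it was also lost in DESeq2 (adjusted p = 0.11), with upper-quartile scaling and without the low-count filter.

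**Figure D4:**
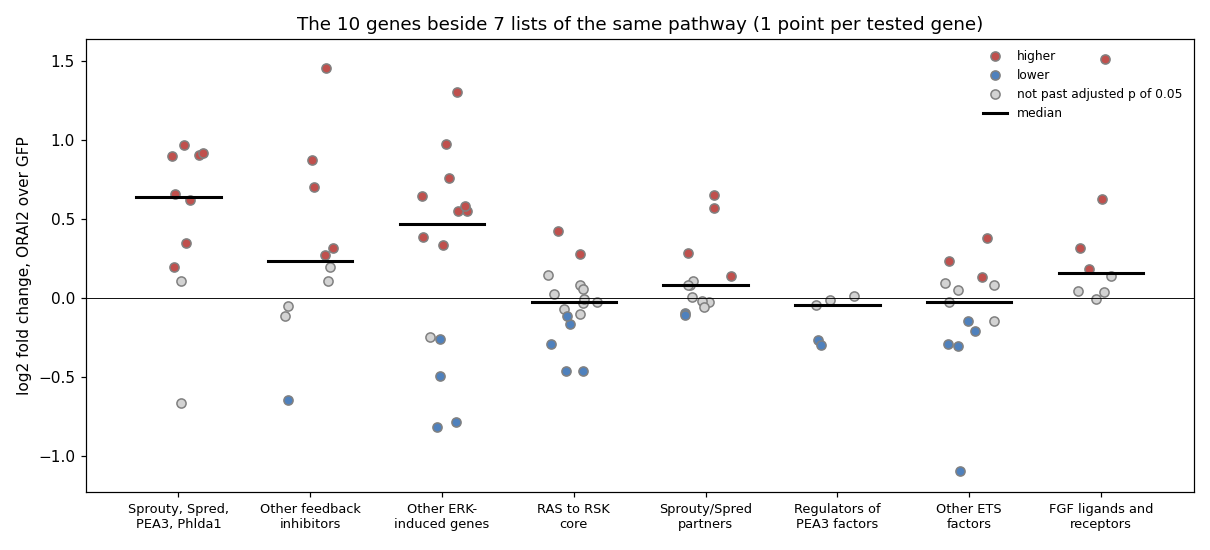
Log2 fold change of ORAI2 over GFP (vertical axis), 1 point per tested gene, for the 10 genes and 7 lists of the same pathway, with lines for the medians. The 10 genes have the highest median, 0.64, followed by the other ERK-induced genes with 0.47, while the medians of the cascade, the PEA3 regulators and the other ETS factors lie within 0.05 of 0.

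Over the 6 libraries the mean standardised level of the 10 genes was most closely followed, outside the family, by Dohh, Zfyve9, Sema3g, Cmc2 and Ptgs2, with Pearson's r of 0.998 for each. The libraries fall into 2 groups, and 874 of 10080 genes compared had an r of at least 0.95. Of the 10 genes Etv4 had the highest r with their mean, 0.987, and Spry1 the lowest, -0.672. That mean includes the gene itself, so these values are not comparable with those of genes outside the family.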

How the data were processed

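RNA from 3 ORAI2 and 3 GFP libraries of mouse embryonic fibroblasts was analysed. Per the file headers, each gene has, as the authors deposited it, 1 whole-number count and 1 TPM (transcript abundance scaled to the library total) in each library. The tools named in the submitters' processing notes are Salmon 1.4.0 and HISAT2 2.0.4, with the build GRCm39. Their roles, the annotation and strand use are not given. The TPM values did not track the counts of like-named libraries and entered no comparison. Entrez numbers were matched to RefSeq symbols (GRCm38.p6) for 25631 of 26532 genes.

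Counts were tested with edgeR 4.0.16 in R 4.3.3 (glmQLFit and glmQLFTest, TMM, filterByExpr with a minimum count of 10, 13764 genes, Benjamini-Hochberg), with group as the only term. A gene was called at an adjusted p under 0.05. Levels are CPM after TMM scaling, marker sums CPM without it. Standard errors come from the F statistic and intervals from the t distribution of the fit. Ratios within a library used counts plus 2 and an exact permutation test. Only the edgeR fit was tested on simulated data, not the permutation test or the other steps. Alternatives were RLE, upper-quartile and library-size scaling, other low-count filters, DESeq2 1.42.0, limma-voom (limma 3.58.1), the replicate number as a block, and each library left out in turn. No 2 libraries of a group agreed within sampling noise (chi-square per gene of 2.54 to 4.50).

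The 10 genes, the lists and the tests were chosen with earlier results of these data known. All 10 genes are named. From each list the called genes with the 3 smallest p-values are named, and every gene of a list of at most 5. Identity was computed with Biopython 1.88 from the longest reading frames of GENCODE M21 transcripts in place of proteins.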

Additional observations from a re-analysis of the deposited data

Results flagged for a closer look

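The deposited TPM columns, which no comparison used, were read by their names alone. For 5 of the 10 genes every column named for ORAI2 lay above every column named for GFP. The third column named for ORAI2 did not have more Orai2 than the third named for GFP, so the names may not give the groups. In the counts 52.9% of all tested genes lay fully apart, in either direction. That share was not computed for the TPM columns, so the 5 of 10 cannot be set against a background. These columns did not track the counts of like-named libraries. Orai2 itself was at 36.33 TPM in the third ORAI2 column and 38.19 TPM in the third GFP column, while the first 2 ORAI2 columns held 1429.5 and 1241.34 TPM. Phlda1 was at 116.06, 118.2 and 105.42 TPM in the ORAI2 columns, against 65.32, 64.2 and 74.35 TPM in the GFP columns. Etv4 was at 29.53, 30.27 and 32.37 TPM in the ORAI2 columns, against 16.64, 15.31 and 14.93 TPM in the GFP columns. For Etv5 the ORAI2 columns held 23.76, 23.17 and 17.82 TPM, and the GFP columns 12.4, 12.13 and 9.03 TPM. Spry4 had 2, 2.31 and 1.69 TPM in the ORAI2 columns, against 1.09, 1.41 and 0.71 TPM in the GFP columns. The lowest ORAI2 column of Spry2 held 27.89 TPM, against 24.39 TPM in its highest GFP column. In the third pair of columns, where Orai2 was not higher, the ratio of the ORAI2 to the GFP column was 2.38 for Spry4, 2.17 for Etv4, 1.97 for Etv5, 1.42 for Phlda1, 1.22 for Spred3, 1.17 for Spry2, 1.1 for Spred2, 0.998 for Spred1, 0.64 for Etv1 and 0.37 for Spry1. Over 11281 genes, as deviations from each gene's mean, the first ORAI2 column followed the counts of ORAI2 replicate 2 most closely (r = 0.817) and the second those of ORAI2 replicate 3 (r = 0.754). The first GFP column followed the counts of GFP replicate 2 most closely (r = 0.628) and the second those of GFP replicate 3 (r = 0.627). The third ORAI2 column reached an r of at most 0.19 with any library, and the third GFP column 0.463, with GFP replicate 1. These 4 columns may hold libraries already tested as counts, so they are no independent support. The sources do not state which libraries they hold, and no test was made.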

How the results depend on the processing

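Of 138 fold changes of the 10 genes under other settings, 133 kept their direction and their side of the threshold and 5 newly passed, 4 of Spred1 and 1 of Spry1. The 8 called genes kept their calls in every setting in which they were tested. Spry4 and Spry1 fell under a filter of 5 CPM in 3 libraries. The count of genes called higher was 7 with that filter, 9 with library-size scaling and 9 with the replicate block, and 8 to 9 with 1 library left out. The count called lower was 0 to 1 with 1 library left out, the 1 being Spry1 without ORAI2 replicate 3, and 0 in every other setting. Over all genes leaving out 1 library gave 2354 to 2734 higher and 2568 to 2927 lower calls. The Etv4 to Etv5 ratio was -0.01 with all libraries and changed sign to 0.0317 without GFP replicate 2, within a range of -0.0499 to 0.0317 over the fits without 1 library. The other 6 ratios kept their direction. Of 224 counts over the lists 20 moved by more than 1.5 times, and of 1114 fold changes of list genes 49 lost and 8 gained a call, with none reversed.

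Libraries with the same number correlated with r of 0.136, 0.0734 and 0.126 over their deviations from the group means. The labels do not say that the numbers pair libraries, although each library correlated best with its own number. With the replicate block 3048 genes were higher and 3198 lower, against 2869 and 3040 without it, and the block added the call of Spred1 among the 10 genes. Depth limits Spry1, with at most 20 counts in a library.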
